A study of Homo sapiens with 12 samples.

Results

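A group of 10 genes with very long coding regions gave lower signals in both immunoprecipitated (IP) fractions than in Total RNA of Jurkat cells. Jurkat is a line of human leukaemic T cells. The genes were HERC1, HERC2, UBR4, MDN1, MYCBP2, SPEN, PRRC2C, PRKDC, UTP20 and SPTBN1. They were picked because they encode giant proteins and because they were among the falls of both IPs against Total RNA. The IP against Total RNA values of these 10 genes are therefore a description of the choice, and no test is drawn from them. The array names 19775 genes through 41091 probe sets that carry a single gene symbol, and the 10 genes hold 41 of those probe sets. A probe set is a group of short probes read as 1 value, and its name ends in _at where its probes were designed for 1 gene, or in _s_at or _x_at where they may also match related transcripts.

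The cells carried either a construct that encodes miR-21 or the matching control vector. From each, RNA was taken by an IP with an antibody to AGO2, an Argonaute protein that holds miRNAs and the mRNAs they pair with, by an IP with control IgG, and as Total RNA. The 6 groups were the miR-21 and control vector cells in the AGO2 IP, the IgG IP and Total RNA, with 2 replicates each, 12 Affymetrix arrays in all. According to the labels, 100 ng of IP RNA and 1 ug of Total RNA were labelled, so the labelled amount and the fraction cannot be told apart. The labels do not say whether the replicates were separate cultures, and any p-value measures the spread between these arrays, which may be technical. The deposited values are log2 signals from robust multi-array averaging (RMA), which puts arrays processed together on a shared scale. By that scaling, each value is relative to the other RNAs of its own fraction. The 2 replicates did not share a scale in these values, as described below. In bulk RNA, fewer cells with a transcript and less of it per cell cannot be told apart.

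Long coding regions make long mRNAs, and the products of these genes are among the largest proteins of the cell. HERC1 and HERC2 are ubiquitin ligases with a HECT domain, UBR4 is a ubiquitin ligase that recognises destabilising protein ends, and MYCBP2 is a large ubiquitin ligase known from axon growth. MDN1 is an ATPase that acts on the maturing large ribosomal subunit, and UTP20 is a component of the complex that assembles the small subunit. SPEN is a nuclear corepressor needed for X inactivation, and PRRC2C is an RNA-associated protein of stress granules. PRKDC is the catalytic subunit of the DNA-dependent protein kinase of DNA end joining, and SPTBN1 is a beta-spectrin of the membrane skeleton. The construct encodes miR-21, whose main mature strand is shown here because it is the agent that separates the 2 kinds of cells; it lies at chr17:59841273-59841294 on the plus strand of GRCh38.p14 (RefSeq), and capitals mark the seed, bases 2 to 8, which pairs with target mRNAs.
hsa-miR-21-5p: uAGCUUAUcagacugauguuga

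Of the T cell markers, 11 of 11 read at or above a log2 signal of 4.02 in Total RNA (range 4.46 to 12.5, median 8.69). That level is the median used as a filter here. Markers of B cells, monocytes, epithelium and red cells reached that level for 1 of 3, 1 of 3, 2 of 5 and 1 of 1 genes. Reaching it does not show presence, since 12824 of 19775 genes passed it by their mean over the 12 arrays. CD79A (6.41), KRT18 (6.29) and HBB (5.53) lay above CD28 (4.46), the lowest T cell marker. The array medians lay between 3.55 and 3.67 in replicate 1 and between 4.38 and 4.48 in replicate 2, so the replicates sat on different scales and differences were formed within a replicate number. The IP arrays of replicate 2 also grouped by construct and not by antibody. There the control vector cells' AGO2 IP and IgG IP arrays differed with an SD of 0.195 over the tested probe sets, and those of the miR-21 cells with an SD of 0.342. In replicate 1 the same differences had SDs of 0.821 and 0.764. The AGO2 IP against IgG IP differences are therefore given with all arrays and also without the AGO2 IP control vector and IgG IP miR-21 arrays of replicate 2. The replicate 2 IP arrays then left differ in construct as well as in antibody.

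Each gene is first described through its brightest probe set, the one with the highest mean over the 12 arrays. For each fraction the 4 values are those of the miR-21 and control vector cells of replicate 1, then of the miR-21 and control vector cells of replicate 2. All differences are log2 values, IP minus Total RNA, averaged over the 4 pairs of arrays, with the standard error (SE) of a fit that treats the replicate number as a block (n = 4 arrays in each fraction).

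Among the ubiquitin ligases, HERC1 (218306_s_at) read 6.04, 5.55, 5.52 and 5.77 in the AGO2 IP, 5.99, 5.40, 6.11 and 5.92 in the IgG IP, and 7.38, 7.13, 8.48 and 8.23 in Total RNA. Every IP value of HERC1 lay below every Total RNA value, and the differences were -2.09 ± 0.29 in the AGO2 IP and -1.95 ± 0.29 in the IgG IP. HERC2 (217902_s_at) read 6.37, 5.41, 6.03 and 5.73 in the AGO2 IP, 5.76, 5.35, 6.05 and 5.80 in the IgG IP, and 7.36, 7.0, 8.61 and 8.49 in Total RNA. The groups did not overlap for HERC2 either, and its differences were -1.98 ± 0.30 in the AGO2 IP and -2.13 ± 0.30 in the IgG IP. Both HERC genes were higher in the Total RNA of replicate 2 than of replicate 1, while their IP values were close in the 2 replicates. These are raw levels, and the array medians were also higher in replicate 2, so they do not compare the replicates.

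UBR4 (211950_at) read 7.17, 7.19, 6.21 and 5.77 in the AGO2 IP, 7.16, 7.02, 6.35 and 5.75 in the IgG IP, and 8.67, 8.38, 9.07 and 9.04 in Total RNA. Its IP values were lower in replicate 2 than in replicate 1 although the array medians were higher there, and no IP value reached a Total RNA value. The AGO2 IP was 4.61-fold and the IgG IP 4.66-fold lower than Total RNA, with differences of -2.21 ± 0.37 and -2.22 ± 0.37 on the log2 scale. For UBR4 the AGO2 IP difference was -1.35 in replicate 1 and -3.07 in replicate 2, the widest gap between replicates of the 10 genes. MYCBP2 (201960_s_at) read 8.25, 8.07, 8.01 and 8.24 in the AGO2 IP, 8.27, 8.23, 8.14 and 8.27 in the IgG IP, and 9.68, 9.60, 10.70 and 10.65 in Total RNA. The 8 raw IP values of MYCBP2 lay close together, across replicates on different scales, and all were below Total RNA. Its differences were -2.01 ± 0.27 in the AGO2 IP and -1.93 ± 0.27 in the IgG IP.

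Of the ribosome assembly genes, MDN1 (212693_at) read 6.43, 5.91, 5.62 and 5.28 in the AGO2 IP, 6.36, 6.43, 5.56 and 5.61 in the IgG IP, and 7.86, 7.84, 8.22 and 8.10 in Total RNA. MDN1 showed the same order as UBR4, lower IP values in replicate 2, and differences of -2.19 ± 0.27 in the AGO2 IP and -2.01 ± 0.27 in the IgG IP. UTP20 (209725_at) read 6.74, 6.59, 6.41 and 6.39 in the AGO2 IP, 6.54, 6.30, 6.95 and 6.42 in the IgG IP, and 7.81, 7.80, 8.54 and 8.39 in Total RNA. UTP20 had the smallest AGO2 IP difference of the 10 genes, -1.60 ± 0.23, beside -1.58 ± 0.23 in the IgG IP, and its groups did not overlap.

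Of the RNA-associated and nuclear regulators, SPEN (201997_s_at) read 7.65, 7.02, 7.19 and 6.91 in the AGO2 IP, 7.78, 7.63, 7.41 and 7.04 in the IgG IP, and 8.97, 9.05, 9.85 and 9.99 in Total RNA. SPEN was lower in every IP array than in any Total RNA array, by -2.27 ± 0.30 in the AGO2 IP and -2.0 ± 0.30 in the IgG IP. PRRC2C (211946_s_at) read 8.98, 8.85, 9.24 and 9.46 in the AGO2 IP, 9.34, 9.49, 9.44 and 9.29 in the IgG IP, and 10.68, 10.70, 10.94 and 11.21 in Total RNA. The PRRC2C differences were -1.75 ± 0.20 in the AGO2 IP and -1.49 ± 0.20 in the IgG IP, and the AGO2 IP difference was nearly the same in replicate 1 (-1.77) and replicate 2 (-1.73).

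PRKDC (208694_at) read 7.87, 7.16, 8.24 and 8.90 in the AGO2 IP, 8.12, 7.91, 8.49 and 8.85 in the IgG IP, and 10.03, 9.64, 10.96 and 10.95 in Total RNA. It had the largest AGO2 IP difference of the 10 genes, -2.35 ± 0.26 or 5.10-fold lower, and the control vector array of replicate 1 was its lowest. In the IgG IP the PRKDC difference was -2.06 ± 0.26. SPTBN1 (212071_s_at) read 9.71, 9.22, 10.06 and 10.10 in the AGO2 IP, 10.01, 9.89, 9.96 and 10.13 in the IgG IP, and 11.53, 11.44, 12.19 and 12.20 in Total RNA. The SPTBN1 differences were -2.07 ± 0.21 in the AGO2 IP and -1.84 ± 0.21 in the IgG IP, with no overlap between IP and Total RNA.

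**Figure D1:**
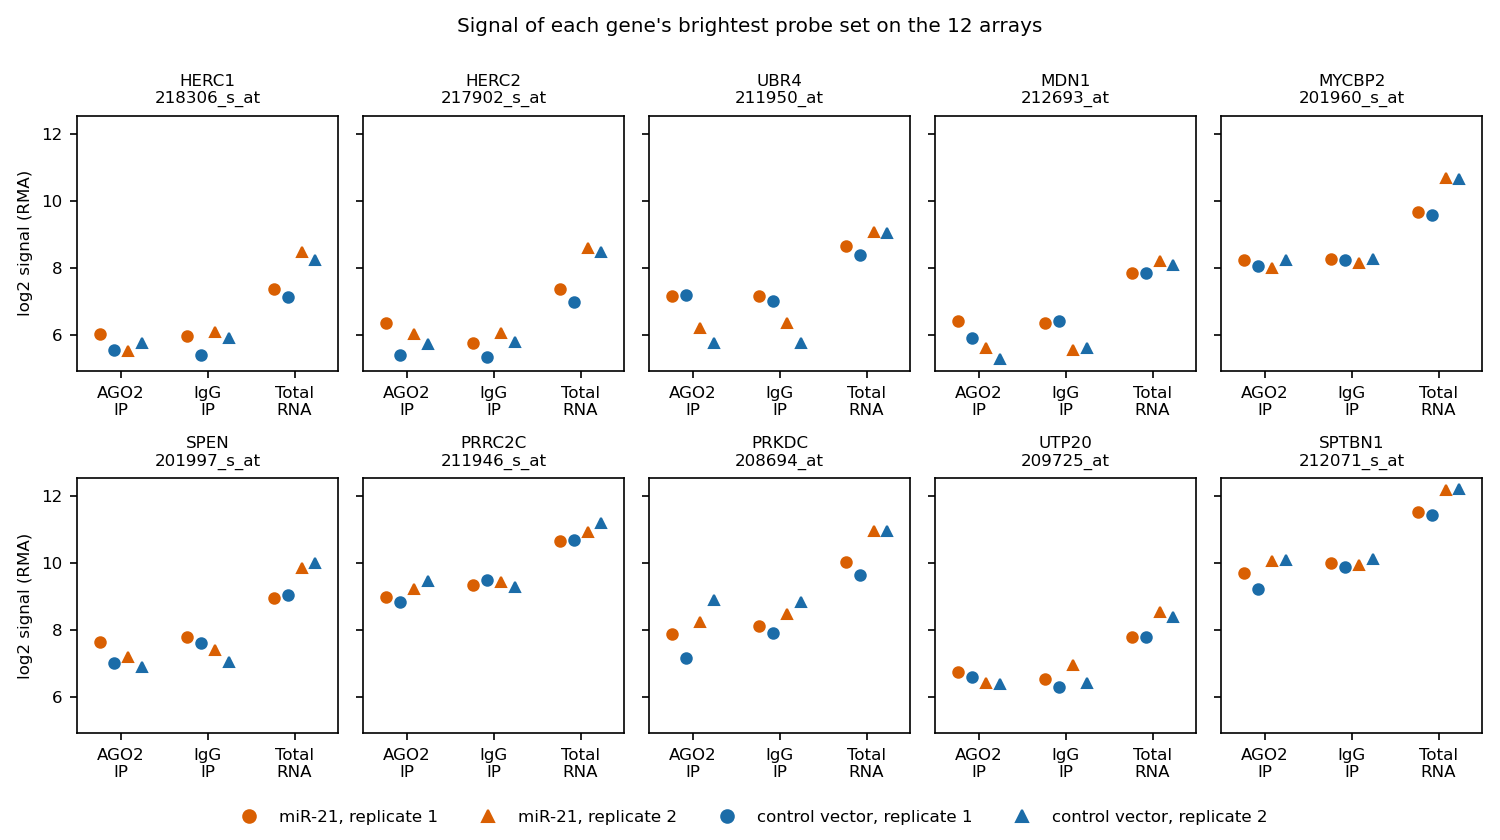
Log2 signal of the brightest probe set of each of the 10 genes on all 12 arrays, by fraction (horizontal axis), with colour for the construct and shape for the replicate. In every panel the 8 IP points lie below the 4 Total RNA points, as for PRKDC, where the highest IP value was 8.90 and the lowest Total RNA value 9.64. The genes were chosen for falling, and the share of all probe sets with such groups was not counted.

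Over the 10 brightest probe sets, the AGO2 IP differences ran between -2.35 and -1.60 with a median of -2.08, and the IgG IP differences between -2.22 and -1.49 with a median of -1.98. The median was nearer 0 in replicate 1, at -1.58 in the AGO2 IP and -1.45 in the IgG IP, than in replicate 2, at -2.61 in the AGO2 IP and -2.41 in the IgG IP. All 10 were lower in all 8 pairs of IP and Total RNA arrays, as were 15.3% of the brightest probe sets of all genes tested. For comparison by signal level, probe sets with means of 6 to 8, where 5 of the 10 lie, had an AGO2 IP median of -0.18, and 19.8% of them were lower in all 8 pairs. Neither figure tests the 10 genes, which were chosen for falling. The lack of overlap given above for single genes pools replicates that sat on different scales. Its share over all probe sets was not counted.

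The 41 probe sets did not all fall. Of these, 27 passed the filter of a mean log2 signal of at least 4.02 over the 12 arrays, and 24 of those 27 were lower in all 8 pairs, against a background of 15.1% of the 23123 probe sets that passed. The 27 had a median difference of -1.95 in the AGO2 IP and -1.59 in the IgG IP, beside -0.05 and -0.01 over all probe sets that passed. Among them, those other than the brightest numbered 17, with medians of -1.51 in the AGO2 IP and -1.46 in the IgG IP. The 14 that did not pass had medians of 0.06 and 0.05, and none of them was lower in all 8 pairs. With these included, all 41 had medians of -1.12 in the AGO2 IP and -1.22 in the IgG IP.

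Probe sets of the same gene differed most for UBR4. UBR4 232907_at read 4.76, 4.66, 5.30 and 4.81 in the AGO2 IP, 5.21, 4.31, 5.02 and 4.81 in the IgG IP, and 4.51, 4.80, 4.87 and 5.19 in Total RNA, with overlapping groups and differences of 0.04 in the AGO2 IP and -0.00 in the IgG IP. UBR4 215636_at read 3.15, 3.25, 4.71 and 5.77 in the AGO2 IP, 2.96, 3.07, 4.93 and 5.59 in the IgG IP, and 2.97, 3.02, 4.75 and 4.35 in Total RNA. That probe set had a mean of 4.04, just above the filter, and its differences were 0.45 in the AGO2 IP and 0.36 in the IgG IP, and the widest gap between fractions was in the control vector cells of replicate 2. UBR4 1563113_at and 231889_at were too dim to pass and differed by 0.43 and 0.06 in the AGO2 IP. Of the 5 UBR4 probe sets, the brightest was the 1 that was lower in all 8 pairs.

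SPTBN1 had the most probe sets, 11, of which 6 passed. SPTBN1 200672_x_at was close to the brightest one, at -1.97 in the AGO2 IP and -1.88 in the IgG IP. Smaller differences were seen for 200671_s_at (-1.08 in the AGO2 IP and -1.28 in the IgG IP), 226342_at (-0.91 and -0.93) and 226765_at (-0.67 and -0.55), all lower in all 8 pairs. SPTBN1 213914_s_at read 3.86, 4.08, 4.90 and 5.09 in the AGO2 IP, 3.90, 2.94, 4.74 and 4.68 in the IgG IP, and 3.77, 4.14, 4.88 and 4.60 in Total RNA. Its groups overlapped, with differences of 0.13 in the AGO2 IP and -0.28 in the IgG IP. The 5 dim SPTBN1 probe sets lay between -0.37 and 0.21 in the AGO2 IP. Mean signals over the 12 arrays were 10.54 and 7.43 for the SPTBN1 probe sets with the largest differences, and 4.30 for the one that passed the filter with overlapping groups.

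The 6 PRRC2C probe sets all passed and all were lower in both IPs. Their AGO2 IP differences were -1.75 for the brightest, -1.97 for 211948_x_at, -1.95 for 214055_x_at, -1.83 for 211944_at, -2.60 for 211947_s_at and -1.12 for 214052_x_at, the dimmest. PRRC2C 211947_s_at also had the widest gap between replicates in Total RNA, reading 3.47, 3.77, 6.24 and 6.66 in the AGO2 IP, 4.68, 4.82, 7.20 and 6.65 in the IgG IP, and 5.59, 5.70, 9.56 and 9.70 in Total RNA. Within each replicate its IP values were all below Total RNA, but the replicate 2 IP values exceeded the replicate 1 Total RNA values.

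The 3 MYCBP2 probe sets were lower in the AGO2 IP by -2.01, -1.51 (201959_s_at) and -1.45 (1557370_s_at). SPEN 201996_s_at and 1556059_s_at differed by -2.15 and -1.77 in the AGO2 IP and by -1.91 and -1.75 in the IgG IP, while the dim SPEN 1556058_s_at differed by -0.40 and -0.44. PRKDC 210543_s_at read 7.20, 5.07, 7.06 and 7.56 in the AGO2 IP, 6.88, 7.19, 6.66 and 7.54 in the IgG IP, and 8.64, 8.63, 9.31 and 9.16 in Total RNA, with differences of -2.21 and -1.87. The lowest PRKDC value again came from the control vector array of the AGO2 IP in replicate 1. HERC1, HERC2, MDN1 and PRKDC had 2, 1, 2 and 1 dim probe sets, with AGO2 IP differences between -0.30 and 0.18, and UTP20 had a single probe set. A further HERC2 probe set, which also names HERC2P10, was left out because it carries 2 symbols.

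**Figure D2:**
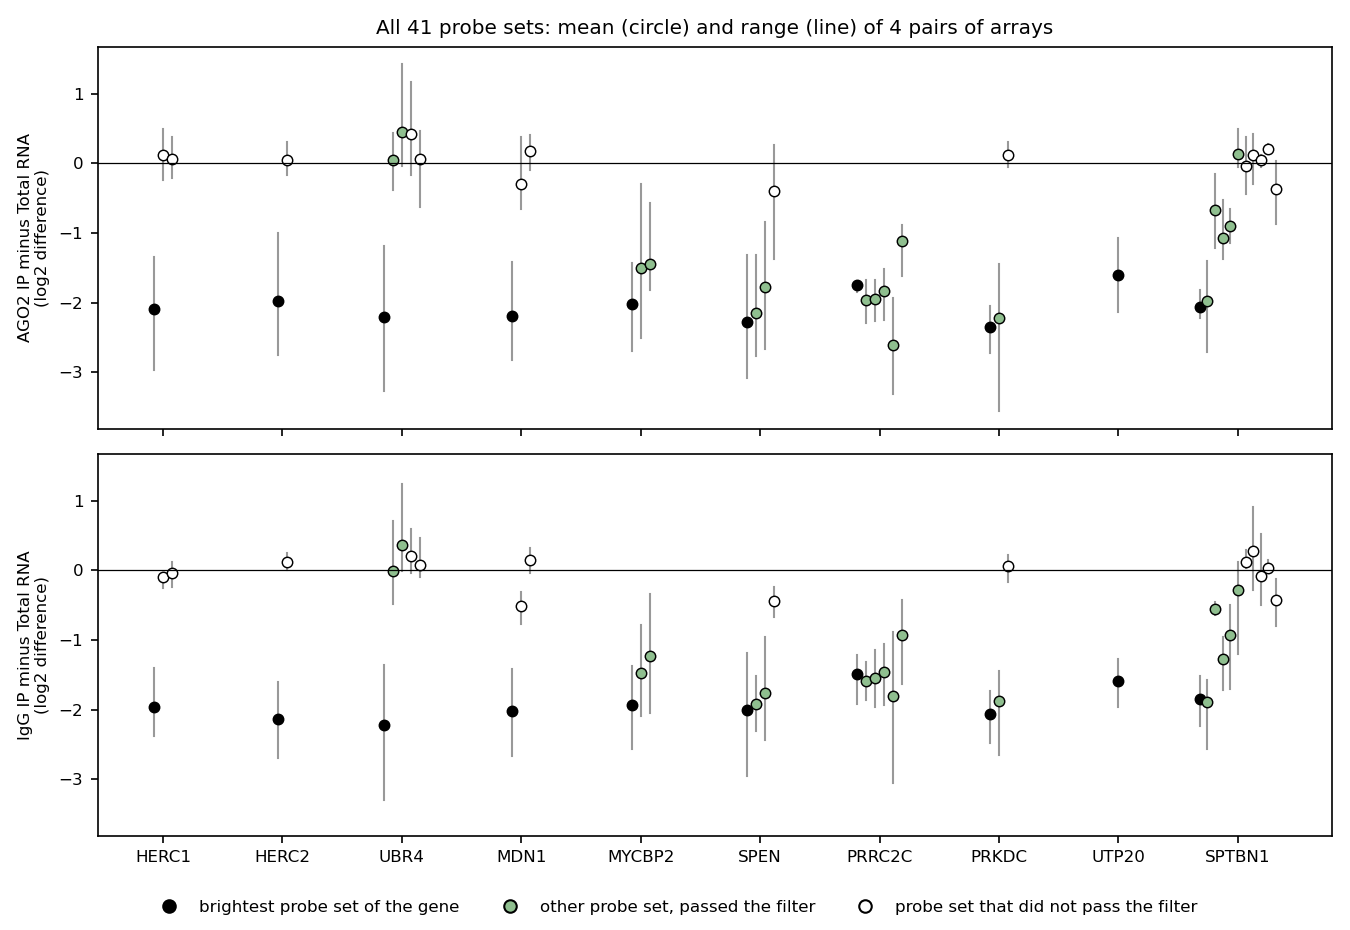
Log2 differences of all 41 probe sets of the 10 genes, AGO2 IP minus Total RNA (top) and IgG IP minus Total RNA (bottom); circles are means and lines the range of the 4 pairs of arrays, ordered by brightness within a gene. Black circles, the brightest probe sets, all lie at or below -1.49, whereas the 14 open circles of dim probe sets lie between -0.51 and 0.43.

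In a limma fit across all probe sets tested, with Benjamini-Hochberg adjustment and a threshold of 0.05, no probe set was called in any of the 6 comparisons without the replicate block (0% called). At an unadjusted p under 0.05, that fit held 1848 probe sets for the AGO2 IP and 703 for the IgG IP against Total RNA. By chance 1 in 20 of all probe sets tested would pass, which is more than 703 and fewer than 1848. With the replicate number as a block, 9.91% of all probe sets tested were lower in the AGO2 IP and 2.31% in the IgG IP than in Total RNA. By that rule 24 of the 27 probe sets of the 10 genes were lower in the AGO2 IP and 18 of 27 in the IgG IP, and none was higher. With 1 array left out at a time, these counts lay between 10 and 23 of 27 in the AGO2 IP and between 0 and 22 of 27 in the IgG IP, and the share of all probe sets called lower moved too. The AGO2 IP count was lowest, at 10, without its miR-21 array of replicate 2, where 0.541% of all probe sets tested were lower. The IgG IP count was 0 without its control vector array of replicate 2, where 0.199% of all probe sets tested were lower. Because the 10 genes were selected on these contrasts, nothing is read from those counts, and both IPs share the Total RNA arrays.

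The array's control probe sets for the 3' end, the middle and the 5' end of ACTB (actin) and GAPDH (a glycolytic enzyme) served as a check of transcript ends. A larger 3' minus 5' signal means less signal from the 5' end, as occurs when transcripts are copied or kept incompletely. For ACTB this difference was 1.97, 4.0, 2.08 and 2.58 in the AGO2 IP, 2.08, 2.18, 3.48 and 2.57 in the IgG IP, and 1.35, 1.38, 3.18 and 3.53 in Total RNA. The IPs lay above Total RNA in replicate 1, and the AGO2 IP lay below it in replicate 2, so the groups overlapped. The means were 2.66 ± 0.93 in the AGO2 IP, 2.58 ± 0.64 in the IgG IP and 2.36 ± 1.16 in Total RNA (SD, n = 4 each), and neither difference from Total RNA passed (0.30 for the AGO2 IP and 0.22 for the IgG IP, p = 0.743 for each, exact two-sided permutation test, smallest possible p 0.0286). Within replicates the ACTB difference for the AGO2 IP was 1.62 in replicate 1 and -1.02 in replicate 2, and for the IgG IP 0.77 and -0.33.

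For GAPDH the 3' minus 5' signal was 0.35, 1.95, 1.02 and 1.05 in the AGO2 IP, 0.44, 0.46, 1.60 and 1.14 in the IgG IP, and 0.14, 0.22, 0.58 and 0.71 in Total RNA. Within each replicate all IP values were above both Total RNA values, while the pooled groups overlapped. The differences from Total RNA were 0.68 in the AGO2 IP (p = 0.0857) and 0.50 in the IgG IP (p = 0.2, both exact two-sided permutation tests), with p = 0.343 and p = 0.4 after adjustment over the 4 tests. Permuting within the replicate number gave p = 0.0556 for each IP, the smallest p this exact test can give. With the middle in place of the 5' probe set, the GAPDH differences were 0.36 in the AGO2 IP and 0.23 in the IgG IP, each with an exact p of 0.0286, which became 0.0571 after adjustment over the 4 tests with that probe set and so did not pass 0.05.

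GAPDH itself was lower in the IPs even at its 3' end, by -1.32 in the AGO2 IP and -1.05 in the IgG IP, and by -2.0 and -1.55 at its 5' end. For the ACTB 3' probe set the differences from Total RNA averaged -0.05 in the AGO2 IP, from 0.34 in replicate 1 and -0.43 in replicate 2, and -0.11 in the IgG IP, from -0.02 in replicate 1 and -0.20 in replicate 2. In replicate 1, the control vector array of the AGO2 IP had the highest 3' minus 5' signal for both ACTB and GAPDH, and it also held the lowest PRKDC values. Without that array the median AGO2 IP difference of the 27 probe sets was -1.91, against -1.95 with it. The part of transcript integrity in the values of the 10 genes was not tested beyond these measurements, since the positions of their probe sets along the mRNAs were not used here.

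**Figure D3:**
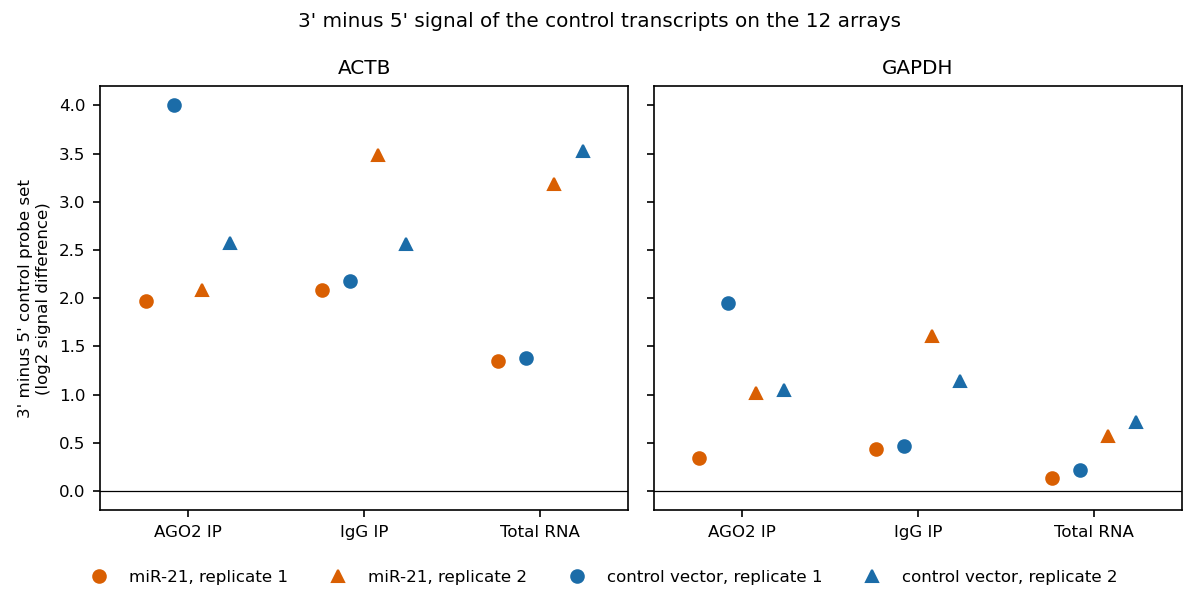
The 3' minus 5' log2 signal of the ACTB and GAPDH control probe sets on the 12 arrays, by fraction (horizontal axis), with colour for the construct and shape for the replicate. ACTB in Total RNA splits into 1.35 and 1.38 in replicate 1 and 3.18 and 3.53 in replicate 2, and the replicate 1 AGO2 IP array of the control vector cells is the highest in both panels (4.0 and 1.95).

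Lists of genes related to the 10 by role or size were then described through the brightest probe set of each gene, by the fit with the replicate block. Without the block no gene of any list was called. The background in the fit with the block was 10.1% of all genes tested lower in the AGO2 IP and 1.75% lower in the IgG IP. Of 41 other genes of giant proteins, 37 passed the filter, of which 29 fell in the AGO2 IP, 23 fell in the IgG IP and none rose. All 37 had differences below 0 in both IPs, with medians of -1.36 in the AGO2 IP and -1.28 in the IgG IP, and 31 of the 37 were lower in all 8 pairs. That median was negative in both replicates, at -1.27 in replicate 1 and -1.49 in replicate 2 for the AGO2 IP. Some genes of this list had already been seen to fall in these data when it was drawn up (MKI67, CENPE, CENPF and EP300 among them), so it is not independent evidence of direction.

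MKI67, a proliferation marker of the chromosome surface, fell in both IPs, at -2.48 in the AGO2 IP and -2.04 in the IgG IP. DST, a cytoskeletal linker of the plakin family, fell too (-2.19 in the AGO2 IP and -2.02 in the IgG IP), as did CENPE, a kinetochore motor (-2.18 and -1.90), and VPS13B, a lipid transfer protein (-1.90 and -1.85). A few genes of similar size moved little, and they were picked out after their values were seen. PLEC, another plakin, differed by -0.12 in the AGO2 IP and -0.15 in the IgG IP, AHNAK, a giant scaffold protein, by -0.38 and -0.07, and CHD8, a chromatin remodeller, by -0.26 and -0.09, and none of these 3 passed the test. Each was read through 1 probe set, with Total RNA means of 5.93 for PLEC, 7.37 for AHNAK and 6.04 for CHD8. All 3 were below 0 in both IPs, so not passing does not show that they did not fall. Whether a low signal hid a fall was not tested.

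The lists of relatives by role had medians nearer 0 than the list of giant proteins. Of 14 HECT and UBR ubiquitin ligases that passed the filter, 6 fell in the AGO2 IP and 2 in the IgG IP, with medians of -0.56 and -0.35. TRIP12 fell in the AGO2 IP (-1.53) and differed by -1.06 in the IgG IP (limma adjusted p = 0.0949), and UBR3 fell in both IPs (-1.34 in the AGO2 IP and -1.06 in the IgG IP). BIRC6 and UBR2 fell in the AGO2 IP (-1.34 and -1.10) and did not pass in the IgG IP (-0.94 and -0.86). The AGO2 IP median of the ligases was -1.10 in replicate 1 and -0.12 in replicate 2, whereas HERC1, HERC2, UBR4 and MYCBP2 each had the larger difference in replicate 2.

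Of 23 ribosome biogenesis factors, 6 fell in the AGO2 IP and 1, HEATR1, in the IgG IP. Their medians were -0.24 in the AGO2 IP and 0.18 in the IgG IP, beside -2.19 and -2.01 for MDN1 and -1.60 and -1.58 for UTP20. HEATR1, a large component of the small-subunit assembly complex, differed by -1.12 in the AGO2 IP and -1.03 in the IgG IP. UTP4 and NOP14, which act in the same complex, fell in the AGO2 IP (-1.21 and -1.17) and did not pass in the IgG IP (-0.99 and -0.77). UTP3 went the other way without passing the test, at 1.15 in the AGO2 IP (limma adjusted p = 0.0513) and 0.97 in the IgG IP (limma adjusted p = 0.164). The AGO2 IP median of this list was -0.66 in replicate 1 and 0.51 in replicate 2.

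Of 9 PI3K-related kinases and end-joining factors, 3 fell in the AGO2 IP and 3 in the IgG IP, with medians of -0.55 and -0.51. TRRAP, the kinase-like scaffold of histone acetyltransferase complexes, fell in both IPs (-1.99 in the AGO2 IP and -1.53 in the IgG IP), and ATR, a kinase of the replication stress response, did too (-0.78 and -0.79). ATM, the kinase that responds to DNA breaks, differed by -0.66 in the AGO2 IP (limma adjusted p = 0.157) and fell in the IgG IP (-1.56). DCLRE1C, the end-joining nuclease Artemis, fell in the AGO2 IP (-0.68) and did not pass in the IgG IP (-0.58).

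Of 7 spectrins and partners, 3 fell in the AGO2 IP and none in the IgG IP, with medians of -0.67 and -0.12. SPTAN1, the alpha-spectrin that pairs with SPTBN1, fell in the AGO2 IP (-1.95) and differed by -1.96 in the IgG IP (limma adjusted p = 0.0611), close in size to SPTBN1. The adducins ADD2 and ADD1, which link spectrin to actin, fell in the AGO2 IP (-1.18 and -0.80), and EPB41 differed by -0.67 without passing. Of 6 relatives and partners of SPEN and PRRC2C, 2 fell in the AGO2 IP and 1 in the IgG IP, with medians of -0.79 and -0.46. PRRC2B fell in both IPs (-1.05 and -1.09), PRRC2A fell in the AGO2 IP (-0.92) and differed by -0.54 in the IgG IP, and HDAC3 (-0.73 and -0.77) and RBM15 (-0.84 and -0.37) did not pass.

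**Figure D4:**
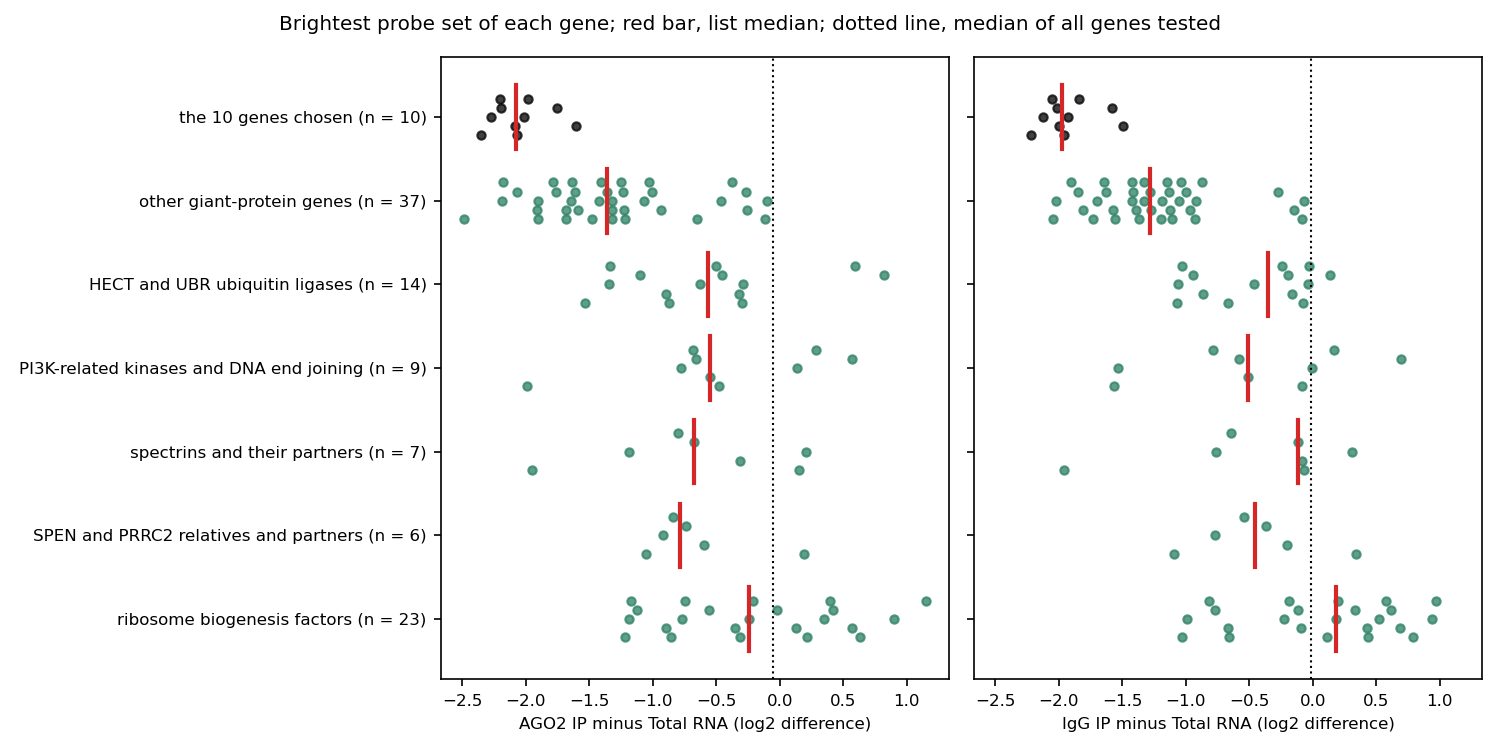
Log2 differences from Total RNA of the brightest probe set of each gene in the AGO2 IP (left) and the IgG IP (right), by list; points are genes, red bars list medians and the dotted line the median of all genes tested (-0.05 and -0.01). The chosen 10 have medians of -2.08 and -1.98, the other giant-protein genes -1.36 and -1.28, and the role lists lie nearer 0.

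Across the 12 arrays, centred within each replicate, the 10 genes followed one another closely, with a correlation of each with the mean of the others between 0.961 (PRKDC) and 0.993 (MDN1). These are descriptions over arrays that share fractions and were part of the choice. Among all other genes, the patterns most like the mean of the 10 by that measure were RPS12 (r = 0.996), USP9X (r = 0.994), USP34 (r = 0.992), HEATR1 (r = 0.989) and BLTP3A (r = 0.989). RPS12 encodes a small protein of the ribosome, and its probe set differed by -0.88 in the AGO2 IP and -0.79 in the IgG IP. Its name ends in _x_at, so related transcripts may share in that signal. USP9X and USP34 encode large deubiquitinases, with differences of -1.48 and -1.64 in the AGO2 IP and -1.39 and -1.73 in the IgG IP. The correlation compares the pattern over the arrays and does not compare the size of the differences.

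The comparison of the AGO2 IP with the IgG IP asks whether either antibody recovered more of these mRNAs. It is the difference of the contrasts that chose the genes, and genes low in both IPs were chosen, so the values below are a description and not an independent test. The AGO2 IP minus IgG IP differences were 0.15 ± 0.30 for HERC2, 0.01 ± 0.37 for UBR4, -0.02 ± 0.23 for UTP20, -0.08 ± 0.27 for MYCBP2, -0.13 ± 0.29 for HERC1 and -0.18 ± 0.27 for MDN1 (SE, n = 4 arrays each). SPTBN1 (-0.22 ± 0.21), PRRC2C (-0.26 ± 0.20), SPEN (-0.27 ± 0.30) and PRKDC (-0.30 ± 0.26) had the lowest means. For PRKDC the differences were -0.24 in miR-21 cells and -0.75 in control vector cells of replicate 1, and -0.24 and 0.05 in those of replicate 2. For SPTBN1 they were -0.30 and -0.67 in replicate 1, and 0.10 and -0.03 in replicate 2. For PRRC2C they were -0.36 and -0.64 in replicate 1, and -0.21 and 0.16 in replicate 2. For SPEN they were -0.13 and -0.60 in replicate 1, and -0.22 and -0.13 in replicate 2. All 4 of these genes, picked for their low means, were thus lower in the AGO2 IP in both constructs of replicate 1, as was MYCBP2. HERC1, HERC2, UBR4 and UTP20 were higher there in both constructs. In replicate 2 both IPs of a construct lay close to each other over all probe sets. Neighbours in the order of the means did not differ beyond their errors.

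None of the 27 probe sets passed the limma test of the AGO2 IP against the IgG IP, in the fit with or without the replicate block, and neither did any other probe set (0% called in each fit). An unadjusted p under 0.05 was reached by 44 probe sets without the block and 1039 with it, and none of them belonged to the 10 genes. Both counts are below the 1 in 20 of all probe sets tested that would pass by chance, so nothing is read from them. The 27 differences of the 10 genes ran between -0.80 and 0.41 with a median of -0.13, beside -0.08 over all probe sets tested, and 20 of 27 were negative. The lowest was PRRC2C 211947_s_at at -0.80 ± 0.36 (limma adjusted p = 0.881). Without the AGO2 IP control vector and IgG IP miR-21 arrays of replicate 2, the fit with the block called 1020 probe sets (4.41% of those tested), 842 of them higher and 178 lower in the AGO2 IP, and 0 of the 27. At that background a count of 0 of 27 says little, and nothing is read from it. The 27 differences then ran between -1.03 and 0.38 with a median of -0.16, and 2 of them had an unadjusted p under 0.05. Among the brightest probe sets in that fit, PRKDC was at -0.64 ± 0.25 (limma adjusted p = 0.190), SPTBN1 at -0.46 ± 0.22, PRRC2C at -0.39 ± 0.23 and SPEN at -0.34 ± 0.39. The others were MDN1 at -0.22 ± 0.33, HERC1 at -0.16 ± 0.37, MYCBP2 at -0.16 ± 0.33, UTP20 at 0.14 ± 0.28, HERC2 at 0.14 ± 0.39 and UBR4 at 0.17 ± 0.44. The means of PRKDC and SPTBN1 were further below 0 without those arrays than with them. The replicate 2 IP arrays that remained were the AGO2 IP of miR-21 cells and the IgG IP of control vector cells. They differed with an SD of 0.574 over the tested probe sets. Antibody and construct cannot be told apart in that pair, so nothing about the antibody is read from the larger differences.

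The miR-21 construct was compared with the control vector within each fraction. No probe set of the 10 genes passed in any fraction, with or without the block, nor did any other probe set (0% called in each). At an unadjusted p under 0.05, the array held 29, 3 and 0 probe sets in the AGO2 IP, the IgG IP and Total RNA without the block, and 781, 225 and 7 with it. Each of these counts is below the 1 in 20 of all probe sets tested that would pass by chance. The miR-21 minus control vector differences of the 27 probe sets ran between -0.72 and 0.81 in the AGO2 IP, between -0.60 and 0.60 in the IgG IP and between -0.37 and 0.26 in Total RNA. Their medians were -0.03, 0.04 and 0.06, and the spread was narrowest in Total RNA. All arrays were used here, including the replicate 2 IP arrays that grouped by construct. Over all probe sets tested, the constructs there differed with SDs of 0.603 in the AGO2 IP, 0.619 in the IgG IP and 0.221 in Total RNA. In replicate 1 these SDs were 0.570, 0.335 and 0.230. The part of that grouping in the IP construct differences was not tested.

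Among the brightest probe sets, HERC2 differed most in the AGO2 IP, at 0.62 ± 0.43, with 6.37 in miR-21 cells against 5.41 in control vector cells of replicate 1, and 6.03 against 5.73 in replicate 2. PRKDC went opposite ways in the AGO2 IP, by 0.72 in replicate 1 and -0.66 in replicate 2, which gave 0.03 ± 0.36. In Total RNA the brightest probe sets differed by -0.15 to 0.25. SPTBN1 226765_at was the 1 probe set of the 27 with an unadjusted p under 0.05 in the fit with the block. It read 5.27 and 5.02 in the AGO2 IP of miR-21 cells and 5.75 and 5.80 in that of control vector cells, a difference of -0.63 ± 0.26 (limma adjusted p = 1.0). The brightest SPTBN1 probe set was at 0.22 ± 0.30, which has the opposite sign.

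**Figure D5:**
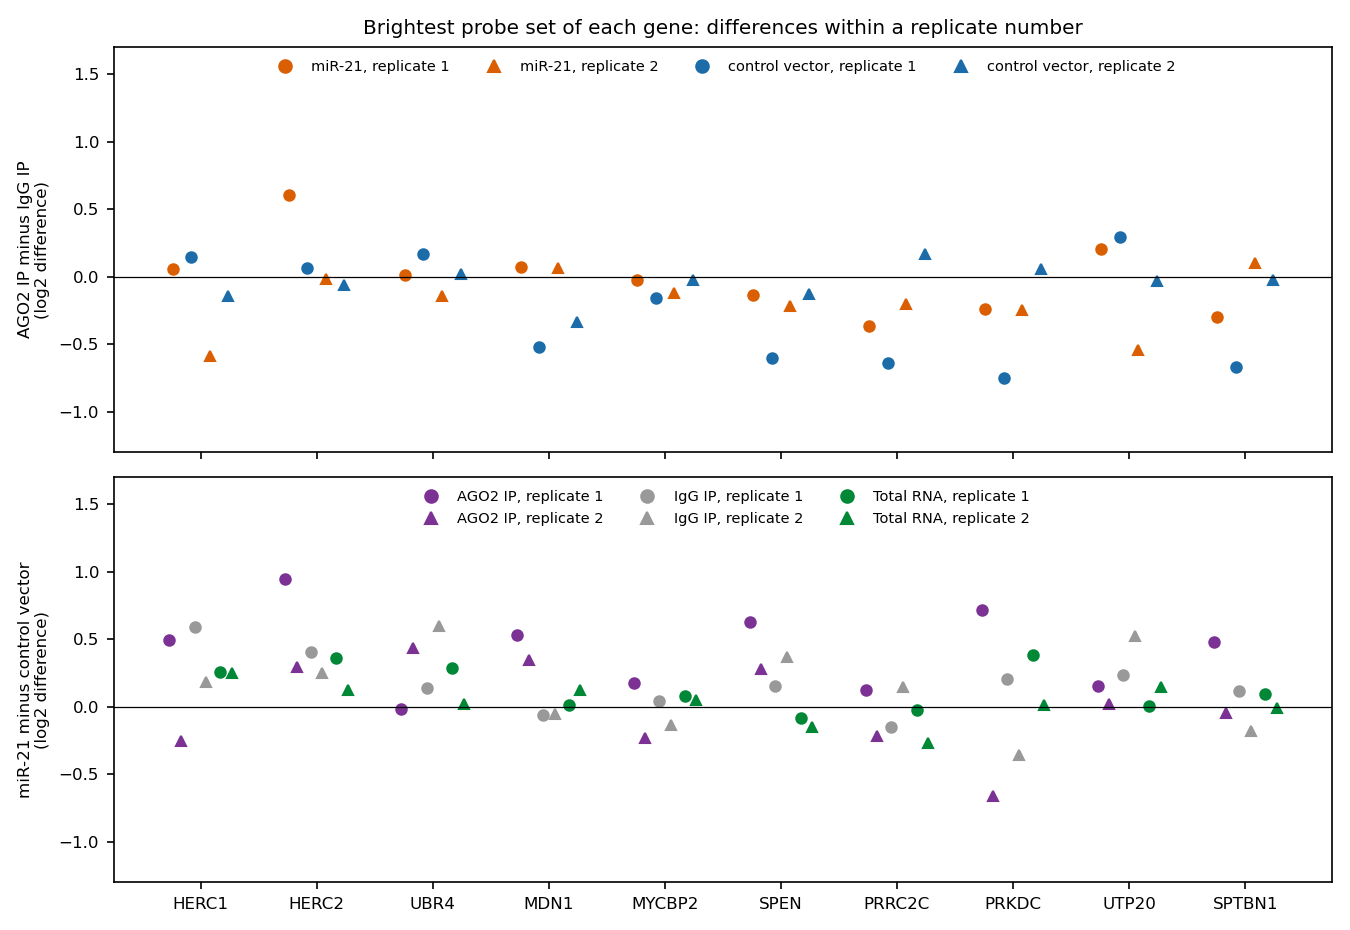
Differences of the brightest probe sets within a replicate number, AGO2 IP minus IgG IP (top, colour for the construct) and miR-21 minus control vector (bottom, colour for the fraction), with shape for the replicate and all arrays shown. Points scatter on both sides of 0 for most genes, as for PRKDC in the AGO2 IP at 0.72 and -0.66.

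The construct effect was also compared between fractions as an interaction in the same fit. No interaction of the 27 probe sets was called, and none of the 27 had an unadjusted p under 0.05, with or without the block. The matching share over all probe sets is not given here, so nothing is read from that count. For the AGO2 IP against Total RNA, these interactions of the 27 ran between -0.97 and 0.73 with a median of -0.09. They too include the replicate 2 IP arrays that grouped by construct.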

How the data were processed

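The deposited log2 values were made by the authors with RMA, per the submitters' processing notes; its version, its settings and whether both replicates were processed jointly were not stated there. Of 54675 probe sets, 62 controls, 1801 with several symbols and 11721 with none in the platform annotation were left out of the tests. The 41091 with 1 symbol were filtered to the 23123 with a mean of at least 4.02, the median over the array's probe sets. limma 3.58.1 (R 4.3.3) fitted a mean for each of the 6 groups over all 12 arrays, with Benjamini-Hochberg adjustment; the fits were tested on simulated data. The residual degrees of freedom were 6, or 5 with the replicate block.

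Same-numbered arrays deviated together from their group means, with correlations of 0.429 to 0.875 (median 0.605) over 15 pairs of groups, so the replicate numbers pair the arrays and values with the replicate block are given. Control transcripts were compared by exact permutation tests (Python 3.11.15, scipy 1.17.1, pandas 2.3.3; figures with matplotlib 3.10.9). The members and lists were chosen with earlier results of these data known. All 10 genes were named with every probe set, and up to 4 genes of each list, those with the largest absolute mean difference over both IPs. PLEC, AHNAK and CHD8 were named after their values were seen. The number of arrays limits the precision. A grouping by protein length was not made, since protein sequences were not analysed here; a list of other giant-protein genes took its place. Genes of the lists without a usable probe set were not analysed here.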

Additional observations from a re-analysis of the deposited data

How the results depend on the processing

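On the values as deposited and without the replicate block, no probe set was called in any comparison, and the calls against Total RNA depended on the block. The replicate block gave 3191 called probe sets for the AGO2 IP and 600 for the IgG IP; median centring without the block gave 1 and 3, and cyclic loess 1 and 1. With the block and 1 probe set a gene, 2051 were called for the AGO2 IP and 246 for the IgG IP, from fewer probe sets tested. Leaving out 1 array at a time, the AGO2 IP calls with the block lay between 139 without its miR-21 array of replicate 2 and 5147 without its control vector array of replicate 2. They were 370 without its miR-21 array and 1657 without its control vector array of replicate 1, and 1573, 257 and 343 without the Total RNA arrays of miR-21 in replicate 1, miR-21 in replicate 2 and the control vector in replicate 2. The IgG IP calls shifted with each of the 12 arrays and lay between 49 without its control vector array of replicate 2 and 1153 without either control vector array of the AGO2 IP. Without the AGO2 IP control vector and IgG IP miR-21 arrays of replicate 2, chosen after seeing the data, the block gave 1020 calls for the AGO2 IP against the IgG IP and 196 for the IgG IP against Total RNA. The cause of these shifts was not tested. The IP against Total RNA differences of the 10 brightest probe sets were negative in 18 of 18 settings with the block in each IP. The genes were chosen for falling in these contrasts, so that sign followed from the choice and nothing is read from it. Their calls held in 15 (UBR4) to 18 of the 18 settings in the AGO2 IP. In the IgG IP they held in 11 (UBR4 and UTP20) to 17 (SPTBN1). The share of all genes whose calls held as often is not given here. Since the 10 genes were chosen on these contrasts, nothing is read from these counts either.

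The median of the members' probe sets was -1.12 in the AGO2 IP and -1.22 in the IgG IP with no filter on dim probe sets, -1.46 in the AGO2 IP within replicate 1, and -1.98 in the IgG IP with the brightest probe set per gene. The other giant-protein genes had medians over all their probe sets of -0.78 and -0.83 with no filter, against -1.25 and -1.18 with it. The planned results on genes grouped by protein length were not run.

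The GAPDH 3' minus middle signal had an exact p of 0.0286 before adjustment (0.36 in the AGO2 IP and 0.23 in the IgG IP) and 0.0571 after it, over the 4 tests, where 3' minus 5' passed neither way. Leaving out 1 array, the ACTB difference lay between -0.15 and 0.69 in the AGO2 IP and between -0.12 and 0.61 in the IgG IP, so its sign was not settled. It was negative without the control vector array of the AGO2 IP in replicate 1, the IgG IP miR-21 array of replicate 2, or either Total RNA array of replicate 1.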
